A study of Danio rerio with 15 samples.

Results

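The macrophage marker genes are 10 zebrafish genes used to follow macrophages in tissue: mpeg1.1, marco, csf1rb, cd68, the complement genes c1qa, c1qb and c1qc, and apoeb, grn1 and lgmn. They were chosen by symbol, and 7 of the 10 had a row among the 14836 genes of the table. These 7 were mpeg1.1, c1qa, c1qb, c1qc, apoeb, grn1 and lgmn, and each passed the filter that kept 10235 genes for testing, 3 or more libraries with a TPM of 1 or above. marco, csf1rb and cd68 were not analysed here. Libraries came from wild-type zebrafish fins, from tissue reaching 1 bone segment to either side of the amputation plane. The groups were 0, 4, 7, 14 and 21 days post amputation (dpa), with 3 libraries each and a pool of 10 animals behind every library. The sample labels call the second time point 4 dpa and the series design text calls it 3.5 dpa, and it is called 4 dpa here. The time course addresses which transcripts at the plane change while a fin regrows. With 3 pools per time point, the p-values measure the spread between pools, not between single fish.

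Macrophages are phagocytes that enter a wound early, clear dead cells and debris, and release signals to the tissue around them. In the regenerating zebrafish fin they reach the stump after the first neutrophils, and loss of macrophages is known to disturb the growth of the blastema and the rebuilding of bone. Their usual markers are of several kinds. Some encode proteins for killing microbes, some complement proteins that tag material for uptake, and others lipid carriers or enzymes of the lysosome, in which engulfed material is broken down. Few of these genes are restricted to macrophages, and apoE in particular has been described in the epidermis of developing and regenerating fins. In a bulk sample, fewer cells of a type and less RNA per cell cannot be told apart.

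Levels are in TPM, a length-normalised share of each library's transcripts, scaled between libraries by median-of-ratios over the 10774 genes above 0 in every library. Scaling factors lay between 0.575 and 1.48. A single gene of type rRNA took 2.26% of TPM in 0 dpa replicate 1 and 71.6% in 4 dpa replicate 3, with the other libraries in between. Depth recovered from the low values is only relative, and it varied 5.67-fold. The median of 81 ribosomal protein genes stood 1.31 above the mean library in 0 dpa replicate 1 and at -0.86 in 4 dpa replicate 3, on the log2 scale. Shared offsets in the low values also placed the libraries in 2 sets that the labels do not name. The number of sets was fixed in advance. The sharpness of the shared offset was 39.1 to 107.3 for pairs within a set and 12.8 to 40.0 for pairs between sets. Set A consisted of all 0 and 4 dpa libraries plus replicates 1 and 3 of 7 dpa. The other libraries, replicate 2 of 7 dpa and all of 14 and 21 dpa, formed set B. The sets and the late time points therefore largely coincide, and for 14 and 21 against 0 dpa they can be told apart only through the 7 dpa libraries.

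apoeb, which encodes a zebrafish apolipoprotein E, a carrier of lipid that macrophages and other cells secrete, was the one marker that passed the test of change over time. It was lowest at 4 dpa, stood higher at 7 and 14 dpa, and was low again at 21 dpa. Over the 5 time points 1 of the 7 markers changed in the moderated F test (limma, Benjamini-Hochberg adjusted p under 0.05), against 26.7% of all tested genes. That marker was apoeb, with an adjusted p of 0.00438 in limma. For the other 6, the adjusted F p in limma lay between 0.503 for c1qa and 0.990 for c1qc.

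The scaled TPM of apoeb was 5757, 4476 and 4722 in the 0 dpa libraries and 1808, 1872 and 1649 in the 4 dpa libraries. It was 2361, 2593 and 3238 at 7 dpa, 3739, 3450 and 3683 at 14 dpa, and 2137, 1602 and 2985 at 21 dpa. All 3 libraries at 0 dpa were above every later library, and the 14 dpa libraries were above every library at 4, 7 and 21 dpa. In order of the mean level, 0 dpa came first with 4985 ± 679 (SD, n = 3), then 14 dpa with 3624 ± 153, 7 dpa with 2731 ± 454, 21 dpa with 2241 ± 697 and 4 dpa with 1776 ± 115. The libraries of 7 and 21 dpa overlapped, as did those of 21 and 4 dpa.

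**Figure D1:**
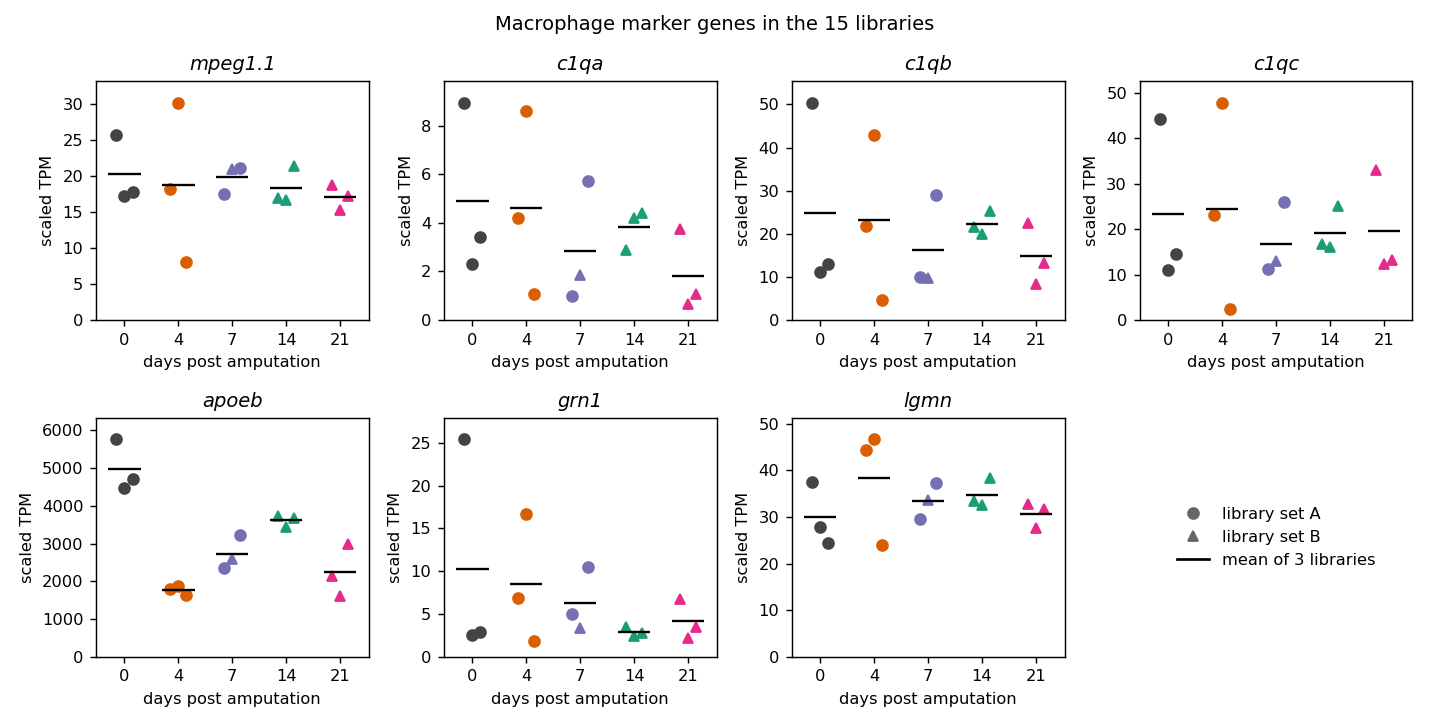
Scaled TPM (vertical axis, linear, from 0) of the 7 markers by days post amputation (horizontal axis). Points are single libraries, circles for set A and triangles for set B, and bars are means of 3 libraries; the apoeb libraries at 0 dpa, between 4476 and 5757, lie above every later apoeb library, while the libraries of the other 6 genes overlap between 0 dpa and each later time point.

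At 4 dpa apoeb averaged 1776 ± 115 scaled TPM, against 4985 ± 679 at 0 dpa (SD, n = 3 each). It fell by 1.48 on the log2 scale (SE 0.26, 95% interval -2.04 to -0.92), which is 0.358 times the 0 dpa level, with a limma adjusted p of 0.00146. One of the 7 markers was called in this comparison, against 15.1% of tested genes called in either direction and 7.26% called lower. The groups did not overlap for apoeb, and 16.3% of tested genes had all 4 dpa libraries below all 0 dpa libraries. The call was lost on the deposited TPM without further scaling, where the difference was -1.11 with a limma adjusted p of 0.273. With the rRNA gene left out before rescaling it passed, with a smaller difference of -0.68 (limma adjusted p 0.0499). On that scale the median of all tested genes was itself 0.60 higher at 4 than at 0 dpa.

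At 21 dpa apoeb averaged 2241 ± 697 scaled TPM, against 4985 ± 679 at 0 dpa (SD, n = 3 each). It fell by 1.19 on the log2 scale (SE 0.26, 95% interval -1.75 to -0.63), with a limma adjusted p of 0.00836. One of the 7 markers was called here, against 13.6% of tested genes in either direction and 7.33% lower. The libraries of the 2 time points did not overlap, as for 15.2% of tested genes in the same direction. This call was lost in 4 of the alternatives, each of which kept a negative difference. The difference was -1.26 on the deposited TPM (limma adjusted p 0.305), -0.75 with the rRNA gene left out before rescaling (0.0868), -1.19 with the 6 libraries of these time points alone (0.105) and -1.10 with the library set in the model (0.553). With the rRNA gene left out, the median of all tested genes was itself 0.30 higher at 21 than at 0 dpa.

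The remaining apoeb differences did not pass. At 7 dpa its mean was 2731, against 4985 at 0 dpa, a log2 difference of -0.87 (95% interval -1.43 to -0.31, limma adjusted p 0.0722). This comparison passed in 3 alternatives: apoeb fell by 1.00 without 7 dpa replicate 3 (limma adjusted p 0.0390), by 0.90 with library weights (0.00562) and by 0.71 with the rRNA share as a covariate, an alternative chosen after seeing the data (0.0420). These 3 fits called 965, 2094 and 897 of 10235 tested genes at 7 against 0 dpa, against 510 in the main fit. With the rRNA gene left out before rescaling the apoeb difference was -0.15 (limma adjusted p 0.647). At 14 dpa the mean was 3624, against 4985 at 0 dpa, a difference of -0.45 (95% interval -1.01 to 0.11, limma adjusted p 0.310). The deposited TPM gave a difference of 0.00 for 14 against 0 dpa, and with the rRNA gene left out it was 0.17. With that gene left out, the median of all tested genes was itself 0.54 higher at 7 and 0.45 higher at 14 than at 0 dpa. Between neighbouring times, 7 minus 4 dpa gave 0.61 (limma adjusted p 0.267), 14 minus 7 dpa gave 0.42 (0.469) and 21 minus 14 dpa gave -0.74 (0.248). The difference between 7 and 4 dpa passed with library weights (0.48, limma adjusted p 0.0340) and with the rRNA share as a covariate (0.67, 0.0442). These fits called 4044 and 856 of 10235 tested genes at 7 against 4 dpa, against 372 in the main fit. In none of the 5 comparisons did the apoeb libraries of the 2 times overlap, and neither did those of 10.8% of tested genes for 7 below 0 dpa, 15.8% for 14 below 0 dpa, 9.43% for 7 above 4 dpa, 11.3% for 14 above 7 dpa and 8.59% for 21 below 14 dpa.

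None of the 7 markers passed in limma at 7 or 14 against 0 dpa, at 7 against 4 dpa, at 14 against 7 dpa or at 21 against 14 dpa. Of all tested genes, 4.98%, 10.2%, 3.63%, 3.46% and 1.41% were called in these comparisons in that order. At an unadjusted p under 0.05, limma counted 1 of the 7 at 7 against 0 dpa, 1 at 7 against 4 dpa and 1 at 21 against 14 dpa, which was apoeb each time, and 0 at the other 2 comparisons. The median log2 difference of the 7 markers from 0 dpa was -0.20, -0.30, -0.13 and -0.48 in time order. The medians over all tested genes were -0.03, -0.03, -0.03 and -0.04 at the same times. Without the rRNA gene and with no median-of-ratios step, the median of all tested genes itself lay 0.60, 0.54, 0.45 and 0.30 above 0 dpa in the same order. The median of the 7 markers on that scale was 0.51, 0.40, 0.47 and -0.06. On the deposited TPM the medians of all tested genes were 0.25, 0.06, 0.31 and -0.08, and those of the markers 0.20, -0.17, 0.31 and -0.52.

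**Figure D2:**
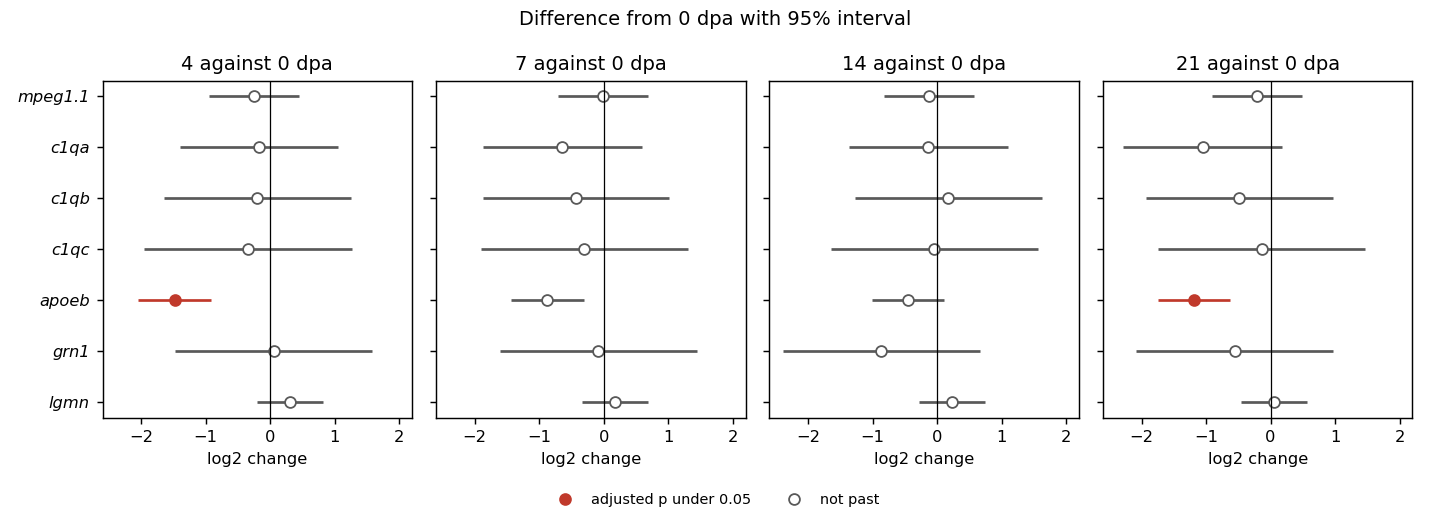
Log2 difference from 0 dpa (horizontal axis) of each marker (rows) at 4, 7, 14 and 21 dpa (panels), with 95% intervals from the limma fit to 15 libraries. Filled red points passed an adjusted p of 0.05; these are apoeb at 4 dpa (-1.48) and at 21 dpa (-1.19), and the widest intervals belong to c1qb, c1qc and grn1.

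mpeg1.1 encodes perforin-2, a pore-forming protein of phagocytes, and its promoter drives the usual macrophage reporters of zebrafish. Its scaled TPM was 25.8, 17.3 and 17.9 at 0 dpa, 18.3, 30.2 and 8.09 at 4 dpa and 17.5, 21.1 and 21.1 at 7 dpa. It had 16.9, 16.7 and 21.4 at 14 dpa and 18.9, 15.4 and 17.3 at 21 dpa. The lowest and the highest of the 15 libraries were both 4 dpa libraries. The 5 means lay within a range of 1.18-fold, and every pair of time points compared overlapped. Of the 7 differences, none passed in limma, and they lay between -0.25 for 4 minus 0 dpa (95% interval -0.95 to 0.45) and 0.24 for 7 minus 4 dpa (95% interval -0.46 to 0.94). Reads of near-identical copies, such as other genes of the mpeg1 and granulin families, may have been divided between rows in the deposited values.

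c1qa, c1qb and c1qc encode the A, B and C chains of C1q, the molecule that starts the classical complement pathway and marks dying cells for uptake. Tissue macrophages are a main source of it. In the RefSeq table of assembly GRCz12tu the 3 genes are direct neighbours among the protein-coding genes of chromosome 21, in the order c1qb, c1qc, c1qa. c1qb had a scaled TPM of 50.4, 11.1 and 13.0 at 0 dpa, 21.9, 42.9 and 4.72 at 4 dpa and 10.1, 9.76 and 29.0 at 7 dpa. The 14 dpa libraries had 21.5, 20.0 and 25.4 and the 21 dpa libraries 22.6, 8.40 and 13.3. A single library was far above its partners at 0, 4 and 7 dpa, and the 14 dpa libraries were the closest together. The highest c1qb library was 10.7-fold above the lowest.

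c1qc had a scaled TPM of 44.2, 11.1 and 14.6 at 0 dpa, 23.2, 47.8 and 2.55 at 4 dpa and 11.2, 12.9 and 26.0 at 7 dpa. It had 16.6, 16.0 and 25.2 at 14 dpa and 33.0, 12.3 and 13.2 at 21 dpa. c1qa was the least abundant chain, at 8.94, 2.32 and 3.44 at 0 dpa, 4.18, 8.58 and 1.05 at 4 dpa and 1.00, 1.86 and 5.72 at 7 dpa. The 14 dpa libraries had 2.88, 4.22 and 4.42 and the 21 dpa libraries 3.75, 0.661 and 1.07. The same libraries were high for all 3 chains, namely 0 dpa replicate 1, 4 dpa replicate 2 and 7 dpa replicate 3. None of the 21 C1q differences passed in the main limma fit, and the groups overlapped in each. The most negative was c1qa at 21 dpa, with a mean of 1.83 scaled TPM against 4.90 at 0 dpa, a difference of -1.05 (95% interval -2.29 to 0.18, limma adjusted p 0.249). With library weights, c1qa and c1qb passed at 7 against 4 dpa (limma adjusted p 0.0165 and 0.0308). That fit called 4044 of 10235 tested genes there, against 372 in the main fit. c1qa also passed the limma F test over the 5 time points in 1 alternative (adjusted p 0.0297).

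The summed level of the 3 chains varied between 8.32 scaled TPM in 4 dpa replicate 3 and 103.5 in 0 dpa replicate 1. Their proportions varied less. c1qb made up 38.0 to 56.7% of the sum, c1qc 30.6 to 57.6% and c1qa 3.10 to 12.7%. The extremes of c1qb and c1qc in one direction came from 4 dpa replicate 3, which had the lowest relative depth of the 15 libraries, and no test was made of these shares.

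grn1 encodes a granulin, a short secreted growth factor peptide, and is listed as grna.1 in the RefSeq table. Its scaled TPM was 25.4, 2.54 and 2.85 at 0 dpa, 6.86, 16.7 and 1.88 at 4 dpa and 4.98, 3.36 and 10.5 at 7 dpa. It had 3.45, 2.48 and 2.80 at 14 dpa and 6.70, 2.24 and 3.53 at 21 dpa. The library that was high at 0, 4 and 7 dpa was again the one that was high for C1q. Its most negative difference was 14 against 0 dpa, with a mean of 2.91 scaled TPM at 14 dpa, against 10.3 at 0 dpa (-0.87, 95% interval -2.40 to 0.66, limma adjusted p 0.488). With 0 dpa replicate 1 and 4 dpa replicate 3 both left out, an alternative chosen after seeing the data, grn1 was higher at 4 than at 0 dpa by 1.68 (limma adjusted p 0.0287), against 0.05 (0.975) in all libraries.

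lgmn encodes legumain, a protease of the lysosome that cuts after asparagine. Its scaled TPM was 37.5, 27.9 and 24.5 at 0 dpa, 44.3, 46.6 and 24.1 at 4 dpa and 29.5, 33.6 and 37.2 at 7 dpa. The 14 dpa libraries had 33.5, 32.5 and 38.4 and the 21 dpa libraries 32.7, 27.6 and 31.7. At 4 dpa, 2 libraries were above all others and the third was the lowest of the 15. The mean was 38.3 scaled TPM at 4 dpa, against 29.9 at 0 dpa, a log2 difference of 0.31 (95% interval -0.20 to 0.83) with a limma adjusted p of 0.434. That difference passed in 4 alternatives. It was 0.46 with the rRNA share as a covariate (limma adjusted p 0.0447) and 0.73 with library weights (0.000584). It was 0.78 without 0 dpa replicate 1 and 4 dpa replicate 3 (limma adjusted p 0.0186) and 1.0996 with the rRNA gene left out before rescaling (0.00583). These fits called 2594, 4354, 1488 and 2485 of all tested genes in that order, against 1549 in the main fit. With the rRNA gene left out, the median of all tested genes was itself 0.60 higher at 4 than at 0 dpa.

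The markers differed in level. apoeb made up 90.7 to 98.4% of the summed TPM of the 7 genes in every library and ranked between 36th and 103rd among all genes of a library. A sum or mean of TPM over the 7 genes is therefore close to apoeb alone. Averaged over the 15 libraries, lgmn had 33.4 scaled TPM, c1qc 20.7, c1qb 20.3, mpeg1.1 18.9, grn1 6.42 and c1qa 3.61, against 3072 for apoeb. The mean level of apoeb exceeded that of 99.6% of the genes in the table and that of c1qa 60.0%.

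The markers also differed in how much libraries of the same time point varied. The SD within time points was 1.09 for c1qc, 1.03 for grn1, 0.975 for c1qb and 0.830 for c1qa, on the log2(scaled TPM + 1) scale. At least 99.1% of tested genes had a smaller SD than each of these 4. The median tested gene had an SD of 0.278. mpeg1.1 stood at 0.442, above 82.2% of tested genes, lgmn at 0.288 and apoeb at 0.247. With a spread as wide as that of c1qc, the 95% interval for 4 against 0 dpa ran between -1.95 and 1.27.

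**Figure D3:**
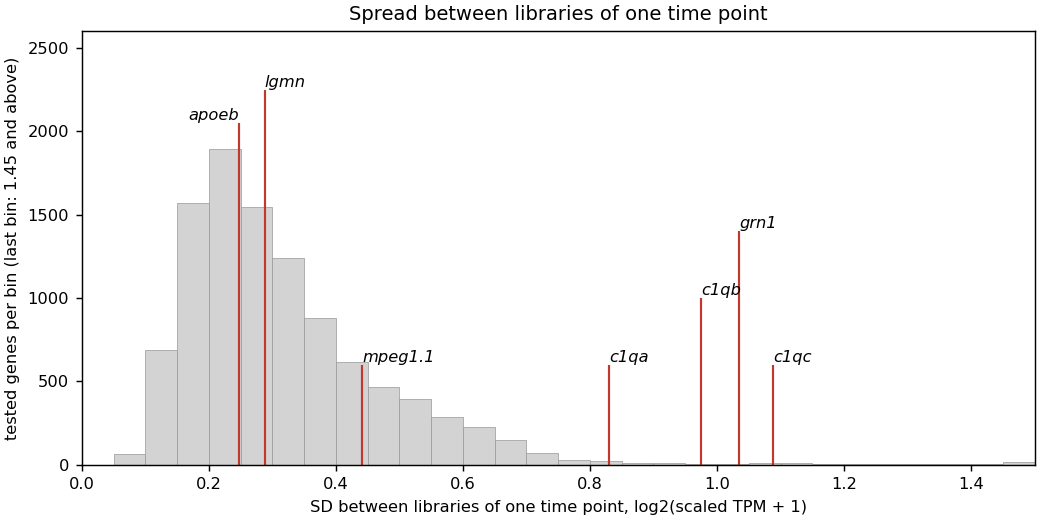
Histogram of the SD between libraries of one time point (horizontal axis, log2(scaled TPM + 1)) for all tested genes (vertical axis, genes per bin; the last bin holds 1.45 and above), with the 7 markers as red lines whose height has no meaning. c1qa, c1qb, c1qc and grn1 lie in the far tail, between 0.830 and 1.09, and apoeb at 0.247 lies below the median of 0.278.

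The other 6 markers varied together between libraries, and no pair with apoeb passed over the 15 libraries. All 21 pairs of markers were correlated over the 15 libraries on the log2 scale, with 2-sided permutation tests of 100000 draws and Benjamini-Hochberg adjustment over the 21. The draws, here and below, shuffled all 15 libraries regardless of time point and library set. A small permutation p can therefore also reflect differences between time points or sets. c1qb and c1qc had a Pearson r of 0.937 and a Spearman rho of 0.950, both with a permutation p of 1e-05, the smallest these draws can give (adjusted 0.000105). Without the 2 libraries farthest from the median, r was 0.914, and it was 0.977 within set A and 0.788 within set B. c1qa and c1qb had an r of 0.914 and a rho of 0.921, with the same permutation p and adjusted value. Without the 2 farthest libraries r was 0.886, and it was 0.956 within set A and 0.892 within set B.

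The 15 pairs among mpeg1.1, the C1q genes, grn1 and lgmn had r between 0.684 and 0.937 and rho between 0.593 and 0.950. Every one passed, with adjusted permutation p of at most 0.00619 for r and 0.0306 for rho. How many pairs of other tested genes pass the same test was not counted. Each of these genes was also related to the rRNA share and to the relative depth of the libraries, as given below. Leaving out the 2 farthest libraries kept r between 0.541 and 0.914 in these 15 pairs. Within set A, r lay between 0.731 and 0.977, and within set B between 0.174 for grn1 with lgmn and 0.892. The closest marker to mpeg1.1 was c1qc, with an r of 0.909, a rho of 0.754 and adjusted permutation p of 0.00014 and 0.00373. That r was 0.730 without the 2 farthest libraries, 0.968 within set A and 0.438 within set B. apoeb had r between -0.063 with lgmn and 0.397 with c1qa and rho between 0.054 and 0.411, and none of its 6 pairs passed in the permutation tests (adjusted p at least 0.187 for r and 0.169 for rho). Within set A its r lay between -0.237 with lgmn and 0.342 with mpeg1.1. Within set B it lay between -0.120 with grn1 and 0.758 with lgmn, and was 0.661 with c1qb and 0.616 with c1qa. As deviations from the means of the time points, all 6 apoeb pairs had a positive r, between 0.375 with mpeg1.1 and 0.563 with c1qb, against 0.779 to 0.964 for the other 15 pairs. These values within sets and within time points were not tested.

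**Figure D4:**
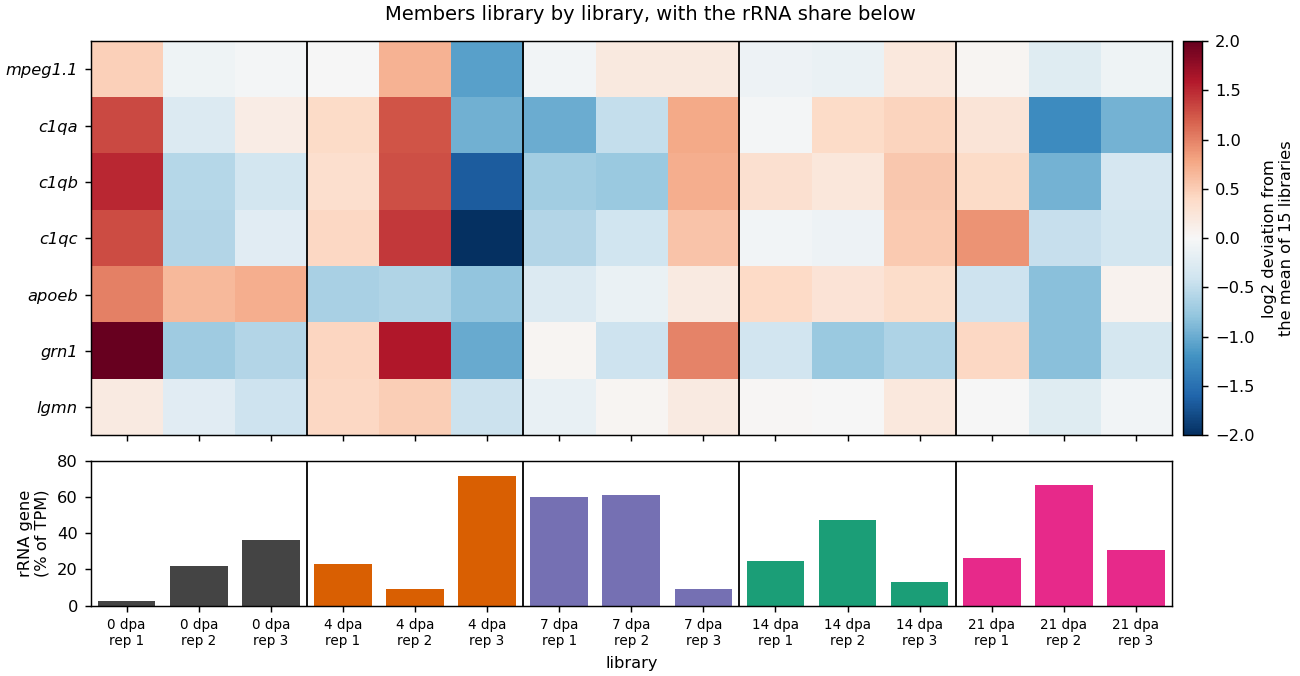
Log2 deviation of each marker (rows) from its mean over 15 libraries (columns, by time point), with colour saturating at 2 either way, above the share of TPM taken by the rRNA gene (bars, percent, from 0). Columns 0 dpa rep 1, 4 dpa rep 2 and 7 dpa rep 3 are red for the C1q genes and grn1 and have rRNA shares of 2.26, 9.00 and 9.23%, while 4 dpa rep 3, with 71.6%, is blue in every row.

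The level of these markers moved with the rRNA share of a library. In all, 3 library measures were set against the 7 markers, the rRNA share, the relative depth per scaled TPM and the median of the ribosomal protein genes, which gave 21 relations. c1qb had a Pearson r of -0.880 and a Spearman rho of -0.904 with the rRNA share, each with a permutation p of 2e-05 (adjusted 0.00042). Without the 2 farthest libraries r was -0.811, and it was -0.910 within set A and -0.866 within set B. Only 0.410% of tested genes had a lower r with the rRNA share, and the median gene had an r of -0.03.

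The rRNA share had an r of -0.826 with c1qa, -0.800 with c1qc, -0.701 with mpeg1.1, -0.673 with grn1 and -0.667 with lgmn, and the corresponding rho were -0.836, -0.768, -0.743, -0.693 and -0.729. All 5 passed the permutation test, with adjusted p of at most 0.0118 for r and 0.0106 for rho. The share of tested genes with a lower r was 2.26% for c1qa and 3.78% for c1qc. It was 10.8% for mpeg1.1, 12.6% for grn1 and 13.0% for lgmn, and 23.1% for apoeb. Without the 2 farthest libraries the r of the 5 markers other than c1qb and apoeb lay between -0.744 and -0.516. Within set A it lay between -0.924 and -0.711 and within set B between -0.711 and -0.357. apoeb had an r of -0.502 and a rho of -0.464, which did not pass (adjusted permutation p 0.0664 and 0.108). Its r was -0.225 without the 2 farthest libraries, -0.450 within set A and -0.625 within set B. An alternative chosen after seeing the data added the rRNA share to the model. In that fit apoeb fell by 1.38 at 4 dpa and by 1.04 at 21 dpa against 0 dpa, with limma adjusted p of 0.000148 and 0.00242. The same fit called 2594 and 2000 of 10235 tested genes at these comparisons, against 1549 and 1392 in the main fit. What sets the rRNA share, and its part in the levels of apoeb and the other markers, was not tested.

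Depth moved with the same markers. c1qb had an r of 0.712 and a rho of 0.768 with relative depth per scaled TPM (adjusted permutation p 0.00756 and 0.00546), an r of 0.729 without the 2 farthest libraries, 0.815 within set A and 0.848 within set B. For apoeb, r was 0.141 and rho 0.279 (adjusted permutation p 0.613 and 0.330). Its r was 0.773 without the 2 farthest libraries, 0.023 within set A and 0.646 within set B. As deviations from the means of the time points, r was 0.456 for apoeb and 0.850 for c1qb, which was not tested. With the ribosomal protein genes, c1qb had an r of 0.679 and a rho of 0.536 (adjusted permutation p 0.00997 and 0.0630). That relation rested on 0 dpa replicate 1 and 4 dpa replicate 3, without which r was 0.364, and r was 0.732 within set A and 0.481 within set B. apoeb had an r of 0.584 and a rho of 0.575 with the ribosomal protein genes (adjusted permutation p 0.0295 and 0.0443), and was the one marker that passed on both. Without the same 2 libraries its r was 0.261, and it was 0.812 within set A and -0.166 within set B. As deviations from the means of the time points, r with the ribosomal protein genes was 0.559 for apoeb and 0.899 for c1qb, also not tested. The part of these library differences in the apoeb levels was not tested beyond the alternatives above.

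**Figure D5:**
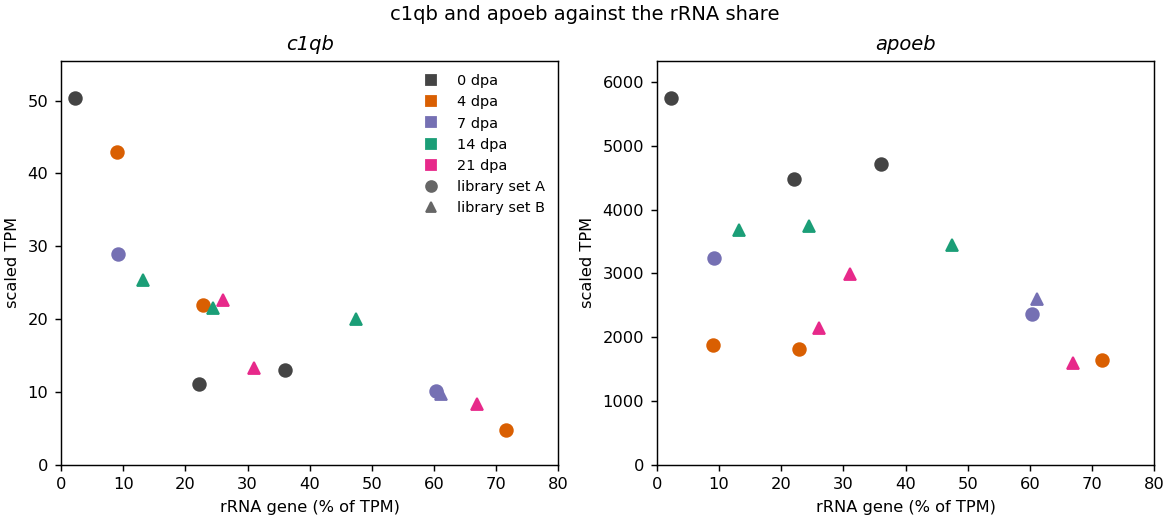
Scaled TPM (vertical axes, linear, from 0) of c1qb and apoeb in each library against the share of TPM taken by the rRNA gene (horizontal axis, percent). Colours are time points, circles set A and triangles set B. c1qb stands at 50.4 in the library with 2.26% rRNA and at 4.72 in the library with 71.6%. apoeb libraries of 4 dpa lie between 1649 and 1872 across rRNA shares of 9.00 to 71.6%. Those of 7 dpa stand at 3238 with 9.23% rRNA, and at 2361 and 2593 with 60.3% and 61.1%.

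Genes whose pattern was most like the markers were sought among 4842 other genes with a mean of at least 5 scaled TPM, by the Pearson r, over 15 libraries, with the mean centred profile of the 7 markers. The 10 closest were atp6ap2 and cyb561a3a (both 0.969), vps29, ssbp1 and ada2a (all 0.948), fcer1gl (0.945), uraha (0.940), tmem176 (0.933), echs1 (0.928) and med20 (0.926). atp6ap2 encodes an accessory subunit of the proton pump that acidifies lysosomes, ada2a an adenosine deaminase of the kind that myeloid cells secrete, and fcer1gl is named for the Fc receptor gamma chain. These were picked from the 10 for description. Whether the list holds more genes of macrophages than other genes do was not tested. None of the 10 changed over the 5 time points in the limma F test, with adjusted p of at least 0.619. They were picked for likeness to a mean profile of markers that mostly did not pass that test. Their F test therefore adds no separate result. fcer1gl varied between 13.6 and 119.4 scaled TPM between libraries. These r values are a description of 15 libraries that share the depth and rRNA differences above. For apoeb alone, the closest genes, a list drawn up after its values were seen, were cldni (0.915), tnks1bp1 (0.913), ccl19b (0.909) and socs1a (0.906).

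Other genes of macrophage biology were counted in lists, to be read against the shares of all tested genes. These were 26.7% for change over time, and for the differences from 0 dpa 7.87% higher and 7.26% lower at 4 dpa, 2.53% and 2.45% at 7 dpa, 4.56% and 5.59% at 14 dpa and 6.27% and 7.33% at 21 dpa. Of 12 tested genes for receptors, ligands and transcription factors of the macrophage lineage, 4 changed over time in the limma F test, near the 26.7% of all tested genes: cebpa, csf1a, mafba and cebpb. cebpa, a transcription factor of myeloid and epithelial cells, averaged 15.3 ± 1.14 scaled TPM at 14 dpa, against 7.89 ± 0.945 at 0 dpa (SD, n = 3 each), and rose by 0.88 on the log2 scale (limma adjusted p 0.00431). mafba, a transcription factor of macrophage maturation, averaged 9.31 ± 2.07 scaled TPM at 21 dpa, against 3.70 ± 1.02 at 0 dpa, and rose by 1.14 (limma adjusted p 0.00938). cebpb, a stress-responsive partner of cebpa, rose by 1.08 at 21 against 0 dpa (limma adjusted p 0.0396). csf1a encodes a ligand of the macrophage growth factor receptor and averaged 9.55 ± 1.79 scaled TPM at 21 dpa, against 6.65 ± 0.700 at 0 dpa, a difference of 0.45 that did not pass on its own (limma adjusted p 0.0722). In this list 0 genes passed in either direction at 4 against 0 dpa, 1 rose at 7 dpa, 1 rose and 1 fell at 14 dpa, and 3 rose and 1 fell at 21 dpa. The gene that fell at both times was csf1b, a second csf1 ligand gene, named here after its values were seen. It fell by 0.74 at 14 dpa and 0.70 at 21 dpa (limma adjusted p 0.0447 and 0.0466). The median log2 difference of the list from 0 dpa was -0.16, -0.12, 0.11 and -0.02 in time order. At 21 dpa csf1ra differed by 0.46, and spi1a, spi1b and irf8 by -0.52, -0.43 and -0.40. None of these passed (limma adjusted p at least 0.148).

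Of 12 tested genes of phagocytosis and uptake of dead cells, 4 changed over time in the limma F test, again near the 26.7% of all tested genes: timd4, mfge8a, stab1 and mfge8b. timd4, a receptor for phosphatidylserine on dying cells, averaged 0.307 ± 0.178 scaled TPM at 4 dpa, against 1.41 ± 0.154 at 0 dpa, and fell by 0.89 (limma adjusted p 0.00301). mfge8a encodes a secreted bridge between dying cells and phagocytes. It averaged 4.20 ± 1.26 scaled TPM at 4 dpa, against 9.77 ± 1.00 at 0 dpa, and fell by 1.08 (limma adjusted p 0.00278). mfge8b fell by 0.63 at 14 against 0 dpa (limma adjusted p 0.0265). The scavenger receptor gene stab1 averaged 1.58 ± 0.192 scaled TPM at 4 dpa, against 0.880 ± 0.237 at 0 dpa, a difference of 0.46 with a limma adjusted p of 0.0573. In this list 0 genes rose and 2 fell at 4 against 0 dpa, and 1 fell at each later time.

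Of 29 tested lysosomal genes and 7 tested genes of lipid handling, 0 changed over time in the limma F test, and 7 and 3 had an unadjusted F p under 0.05. In single comparisons with 0 dpa, 1 lysosomal gene rose and 1 fell at 4 dpa and 1 rose at 14 dpa, and 1 lipid gene fell at 4 dpa and 1 rose at 21 dpa. The median log2 difference of the lysosomal genes from 0 dpa lay between -0.14 at 14 dpa and -0.03 at 4 dpa. That of the lipid genes lay between -0.17 at 21 dpa and 0.18 at 7 dpa.

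Outside C1q, 2 of 5 tested complement genes changed over time in the limma F test, c4b and c6. c4b encodes a C4 protein, which acts directly after C1 in the classical pathway. It averaged 6.35 ± 1.44 scaled TPM at 0 dpa and 1.87 ± 0.332 at 4 dpa (SD, n = 3 each). It averaged 0.867 ± 0.216 at 7 dpa, 1.96 ± 0.596 at 14 dpa and 0.550 ± 0.133 at 21 dpa. c4b was lower at every later time, by 1.34, 1.96, 1.31 and 2.23 on the log2 scale in time order, with limma adjusted p of at most 0.000981. c6 encodes a protein of the membrane attack complex and rose by 0.60 at 4 against 0 dpa (limma adjusted p 0.0158), at a level of 1.42 ± 0.184 scaled TPM at 4 dpa, against 0.592 ± 0.0588 at 0 dpa.

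Of 8 tested inflammatory effector genes, 5 changed over time in the limma F test, and the 4 with the lowest adjusted p were ptgs2b, arg2, ptgs2a and nos2a. ptgs2b, one of the pair of cyclooxygenase-2 genes, averaged 28.2 ± 6.79 scaled TPM at 21 dpa, against 2.12 ± 0.409 at 0 dpa, and rose by 3.21 (limma adjusted p 8.77e-07). ptgs2a, the other of the pair, averaged 74.1 ± 9.79 scaled TPM at 21 dpa, against 24.6 ± 5.70 at 0 dpa, and rose by 1.57 (limma adjusted p 0.000173). nos2a, an inducible nitric oxide synthase gene, averaged 300.7 ± 41.1 scaled TPM at 21 dpa, against 74.7 ± 28.1 at 0 dpa, and rose by 2.05 (limma adjusted p 0.00105). arg2, an arginase gene, averaged 10.5 ± 1.16 scaled TPM at 4 dpa, against 27.2 ± 3.30 at 0 dpa, and fell by 1.29 (limma adjusted p 0.00106). At 21 dpa arg2 averaged 55.8 ± 19.5 scaled TPM, against 27.2 ± 3.30 at 0 dpa, and rose by 0.96 (limma adjusted p 0.00933). In this list 4 genes rose and 1 fell at 21 against 0 dpa, against 6.27% and 7.33% of all tested genes. The gene that fell was saa, named here after its values were seen, by 2.69 at 21 dpa (limma adjusted p 0.00240). It also fell by 1.94 at 14 against 0 dpa (limma adjusted p 0.0204).

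The rest of this paragraph leaves out saa, and whether its calls at 14 and 21 dpa hold in these alternatives is not given here. Each difference from 0 dpa named above for genes of these lists kept its direction under the other scalings. On the deposited TPM, c4b at 4, 7 and 21 dpa, nos2a and ptgs2b at 21 dpa still passed in limma, and the other named differences did not. With the rRNA gene left out before rescaling, c4b at 4 and 14 dpa, mafba and csf1b at 21 dpa, csf1b at 14 dpa, timd4, mfge8a and arg2 at 4 dpa and mfge8b at 14 dpa no longer passed. The late time points largely coincide with library set B. With the library set in the model, limma called 31 of all tested genes at 21 against 0 dpa and 4 at 14 against 0 dpa, against 1392 and 1039 without it. In that fit c4b (limma adjusted p 0.0262) and ptgs2b (0.000973) at 21 dpa still passed, and the other differences named above for 14 and 21 against 0 dpa kept their direction but did not pass. The differences named above that were called at 4 and 7 against 0 dpa still passed.

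The mean log2 levels of the common leukocyte markers, which macrophages share, and of the lymphocyte markers moved with apoeb. None of the other 6 marker lists passed with apoeb. Of 6 tested common leukocyte markers 4 changed over time in the limma F test, against 26.7% of all tested genes. In this list 3 fell at 4 against 0 dpa and 2 at 21 against 0 dpa, against 7.26% and 7.33% of all tested genes. Those that fell at 4 dpa were cd74a, cd74b and wasb. coro1a, lcp1 and rac2 differed by -0.57, -0.04 and -0.09 at 4 against 0 dpa and did not pass (limma adjusted p 0.0928, 0.946 and 0.916). The summed level of the common leukocyte markers came mostly from cd74a, an MHC class II chaperone gene. It was 2519 to 5783 scaled TPM at 4 dpa and 4334 to 6248 at 21 dpa, against 9857 to 15348 at 0 dpa. cd74a fell by 1.60 at 4 against 0 dpa (limma adjusted p 0.0102), a call that was lost on the deposited TPM (0.262). In 56 relations the 7 markers were set against the mean log2 level of the tested genes in each of 8 marker lists. Summed levels were not correlated. apoeb had an r of 0.831 and a rho of 0.800 with the common leukocyte markers (adjusted permutation p 0.00504 and 0.0148). That r was 0.732 without the 2 farthest libraries, 0.859 within set A and 0.899 within set B. apoeb also had an r of 0.783 and a rho of 0.814 with the lymphocyte markers (adjusted permutation p 0.0143 and 0.0148), an r of 0.646 without the 2 farthest libraries, 0.891 within set A and 0.440 within set B. The relation with the common leukocyte markers was not particular to apoeb. c1qa had an r of 0.714 and a rho of 0.693 with them (adjusted permutation p 0.0487 and 0.103), and c1qb 0.696 and 0.639 (0.0552 and 0.157). As deviations from the means of the time points, apoeb had an r of 0.643 with them. The other 6 markers had 0.884 to 0.967, which was not tested. Within time points the lymphocyte relation was not particular to apoeb either. As such deviations, apoeb had an r of 0.498 with the lymphocyte markers and the other 6 markers had 0.761 to 0.883, also not tested. The r of apoeb with the other 6 lists lay between -0.653 for the endothelial markers (adjusted permutation p 0.0625) and 0.403 for the epidermis markers. At 4 against 0 dpa, where apoeb fell, the median log2 difference was 1.11 for the 3 tested endothelial and 0.69 for the 4 tested osteoclast markers, against -0.73 for the common leukocyte and -0.78 for the lymphocyte markers. It was also negative for the epidermis markers, at -0.55. The neutrophil markers had 0.04, the osteoblast markers 0.66 and the erythrocyte markers 2.17.

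With the epidermis markers apoeb had an r of 0.403 and a rho of 0.243 (adjusted permutation p 0.365 and 0.657), an r of 0.175 without the 2 farthest libraries, 0.743 within set A and -0.781 within set B. The summed epidermis markers were 4108 to 5674 scaled TPM at 4 dpa, against 6486 to 7790 at 0 dpa. They did not overlap, as for 16.3% of single tested genes in the same direction. In the limma F test, 2 of 6 tested epidermis markers changed over time, 3 of 4 neutrophil, 1 of 4 osteoclast, 3 of 6 lymphocyte, 0 of 3 erythrocyte, 2 of 3 endothelial and 4 of 5 osteoblast markers. Of all tested genes, 26.7% changed over time in that test. The erythrocyte markers also had 0 at an unadjusted F p under 0.05. The osteoclast marker that changed was acp5a, a phosphatase of osteoclasts, which are relatives of macrophages. It averaged 44.3 ± 34.3 scaled TPM at 4 dpa, against 4.19 ± 1.16 at 0 dpa, and rose by 2.52 (limma adjusted p 0.0188). At 7 against 0 dpa it rose by 3.58 (limma adjusted p 0.00713). At 4 against 0 dpa ctsk, nfatc1 and acp5b differed by 0.81, 0.57 and -0.26 and did not pass (limma adjusted p 0.313, 0.373 and 0.453). The part of any of these cell types in the apoeb levels was not tested.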

How the data were processed

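All values derive from the deposited TPM, which the authors computed for 14836 genes in 15 libraries and which sum to 1000000 in each. Per the submitters' processing notes, Trim Galore 0.6.7, cutadapt 3.5 and Salmon 1.4.0 were used with the danRer11 build. Per the labels' protocols, total RNA was reverse transcribed, amplified by PCR and tagged with Tn5, without molecular identifiers. TPM keeps no absolute depth, so no intervals for counting error are given, and an abundant transcript lowers every other value in its library.

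TPM was scaled by median-of-ratios, and log2(scaled TPM + 1) was fitted with limma 3.58.1 in R 4.3.3, with 1 mean per time point over all 15 libraries, an intensity trend and Benjamini-Hochberg adjustment over the 10235 genes that reached a TPM of 1 in 3 or more libraries. Tests were 2-sided, with an adjusted p under 0.05 called changed. Differences are on that log2 scale, which understates changes of low genes. The fit was tested on simulated data. Correlations used Python 3.11.15 and scipy 1.17.1. The relative depth and the library sets were rebuilt from steps and offsets shared between low TPM values.

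All markers are named whatever they did. Of the other lists, up to 4 genes with the lowest adjusted p among those that passed the F test are named, and the 10 genes most like the marker mean. The markers and lists were chosen with earlier results of these data known. Alternatives changed the scaling, pseudocount (0.1), filter, replicate block, library weights, library set and libraries used. RefSeq tables of assembly GRCz12tu gave names and gene order only, so no coordinates are given.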

Additional observations from a re-analysis of the deposited data

How the results depend on the processing

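Of 1484 values of single markers under an alternative, 1460 kept their direction where they were called and their side of the threshold, 6 lost a call, 18 gained one and 0 reversed. On the deposited TPM without scaling, limma called 0 markers over the 5 time points, 0 at 4 against 0 dpa and 0 at 21 against 0 dpa. On the scaled values it called 1 in each. All tested genes called were 869, 531 and 197 in that order, against 2734, 1549 and 1392 on the scaled values. With the rRNA gene left out before rescaling, limma called 2 markers over the 5 time points, 2 at 4 against 0 dpa (apoeb and lgmn) and 0 at 21 against 0 dpa. Of 10234 genes tested in that fit, 2283, 2485 and 499 were called in that order. With only the libraries of the compared times, and with the library set in the model, limma called 0 markers at 21 against 0 dpa. These fits called 672 and 31 of all tested genes at 21 against 0 dpa. The library set and this comparison cannot be told apart except through 7 dpa. With library weights, limma called 3 markers over the 5 time points, 3 at 4 against 0 dpa, 1 at 7 against 0 dpa and 4 at 7 against 4 dpa. Those called at 7 against 4 dpa were apoeb, c1qa, c1qb and lgmn. All tested genes called with these weights were 6769, 4354, 2094 and 4044 of 10235 in that order. The main fit called 2734, 1549, 510 and 372. The next 2 alternatives were chosen after seeing the data. Without both 0 dpa replicate 1 and 4 dpa replicate 3, 2 markers were called over the 5 time points and 3 at 4 against 0 dpa (apoeb, grn1 and lgmn). All tested genes called in that fit were 2766 and 1488. With the rRNA share as a covariate, 2 markers were called at 4 against 0 dpa, 1 at 7 against 0 dpa and 1 at 7 against 4 dpa. All tested genes called with that covariate were 2594, 897 and 856 in that order. Leaving out each library in turn gave 0 to 1 called markers at 7 against 0 dpa, the 1 being without 7 dpa replicate 3, and moved no other count. The cause of these shifts was not tested. The replicate block changed no count (apoeb limma adjusted p 0.00368 at 4 and 0.0153 at 21 against 0 dpa). Same-numbered libraries did not deviate together in every pair of any comparison (r between -0.626 and 0.650), so the numbers were not taken as pairs. Other pseudocounts and filters moved no count. Absolute depth is unknown and each time point has 3 pools. c1qa, c1qb, c1qc and grn1 had the widest spread between libraries, and the part of the rRNA share, 2.26 to 71.6% of TPM, in that spread was not tested.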
